A study of Mus musculus with 4 samples.

Results

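A set of 10 mouse selenoenzyme genes was examined in the gene annotation deposited with the series, to place the codons that encode selenocysteine in them. They are the glutathione peroxidase genes Gpx1, Gpx2, Gpx3 and Gpx4, the thioredoxin reductase genes Txnrd1, Txnrd2 and Txnrd3, and the iodothyronine deiodinase genes Dio1, Dio2 and Dio3. Members were taken by symbol, and all 10 symbols were found, under 11 of the 46078 gene identifiers, because Txnrd2 is also annotated on a patch sequence. Selenocysteine codons are marked by lines of their own, of which the file holds 61, and 17 of these belong to the members. On the reference chromosomes 24 genes carry such a line, the 10 members and 14 other selenoprotein genes.

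The series itself compared bone marrow-derived macrophages of C57/BL6 background under pressure for 6 h, in 4 groups of 1 library each. Cells came from Piezo1 fl/fl mice that lacked Cre, labelled WT, or carried LysM Cre, a recombinase made in myeloid cells, labelled KO. They were kept under static or cyclic pressure, the latter with an amplitude near 15 mmHg. All 4 groups carry the floxed Piezo1 alleles, the mice were cohoused littermates, and all cells were grown with M-CSF at 50 ng/mL, per the labels' protocols. The file gives gene models and 0 columns of library values, so expression of the members in these macrophages was not analysed here, the depth of the libraries is unknown, and the results below are positions and lengths with no test between groups.

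Selenocysteine is an amino acid in which selenium takes the place of the sulphur of cysteine, and these enzymes carry it in their active site. Its codon in the mRNA is UGA (TGA in DNA), elsewhere a stop codon. Reading it as selenocysteine needs a hairpin in the 3′ UTR of the same mRNA, the SECIS element, which is bound by SECISBP2 and brings in the elongation factor EEFSEC with a dedicated tRNA. When selenium is scarce the UGA is more often read as a stop, and a stop far enough upstream of the last exon junction can mark an mRNA for nonsense-mediated decay, for which GPX1 mRNA is a well-known case. The position of the codon relative to the last junction is therefore a property of interest in each gene model.

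The letters around each codon are shown so that they can be compared within and between families. Each line runs 5′ to 3′ on the transcript strand, with the selenocysteine triplet in capitals and 12 bases on either side. Letters come from GENCODE M21 transcripts of the same identifiers, on GRCm38, and the coordinates are those of the triplet in the deposited file.
Gpx1, chr9:108339451-108339453, plus strand: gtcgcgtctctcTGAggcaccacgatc
Gpx2, chr12:76795256-76795258, minus strand: gtggcgtcactcTGAggaacaactacc
Gpx3, chr11:54907256-54907258, plus strand: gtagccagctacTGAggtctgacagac
Gpx4, chr10:80054737-80054739, plus strand: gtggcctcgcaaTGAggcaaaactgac
Txnrd1, chr10:82896037-82896039, plus strand: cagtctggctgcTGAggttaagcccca
Txnrd2, chr16:18477772-18477774, plus strand: gtgactggttgcTGAggctaagtcacc
Txnrd3, chr6:89674789-89674791, plus strand: cagaaaggctgcTGAggctagccctgc
Dio1, chr4:107297700-107297702, minus strand: ggcagttgcaccTGAccttcatttctt
Dio2, first codon, chr12:90729823-90729825, minus strand: ggttcagccaccTGAccacctttcact
Dio2, second codon, chr12:90729424-90729426, minus strand: ttcagcaagagaTGAattctagattag
Dio3, chr12:110279739-110279741, plus strand: ggcagctgtaccTGAccaccgttcatg
All 11 triplets read TGA in frame with the annotated ATG, and the coding sequences of the 10 members held no other in-frame stop triplet. The base after the triplet, which is known to affect how well a UGA stops translation, was G in 7 codons, C in 3 and A in 1. The 7 with G are those of the glutathione peroxidases and thioredoxin reductases, and the first codon of each deiodinase was followed by C. The second Dio2 codon stood apart from the other 10, with A after the triplet and 33.3% G or C in its flanks, against 50.0% to 66.7% elsewhere.

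Among first codons, the median number of matching flanking bases was higher within each family than between families, although the ranges of the glutathione peroxidases and of pairs between families overlapped. Of the 24 flanking bases, the glutathione peroxidases matched each other at 10 to 18 positions (median 13.5 over 6 pairs), with Gpx1 and Gpx2 the closest pair. Thioredoxin reductases matched at 14 to 16 positions over 3 pairs, and the first codons of the deiodinases at 12 to 16 positions over 3 pairs. First codons from different families matched at 3 to 11 positions, with a median of 6 over 33 pairs. These are coding bases of paralogous genes, so the likeness describes the families and was not tested. The second Dio2 codon matched the first at 2 of 24 positions and the codons of Dio1 and Dio3 at 7 each. It also matched the codons of Gpx3 and Gpx4 at 7 each, and those of the other Gpx and Txnrd genes at 2 to 5. All 6 deiodinase pairs thus ranged from 2 to 16, with a median of 9.5.

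Each gene is described below by 1 reference transcript: the protein-coding transcript with a selenocysteine line, a start codon and a stop codon that has the longest coding sequence. Coding lengths leave out the stop codon, and distances count the bases between the selenocysteine triplet and the stop codon or the last exon junction of the spliced transcript.

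**Figure D1:**
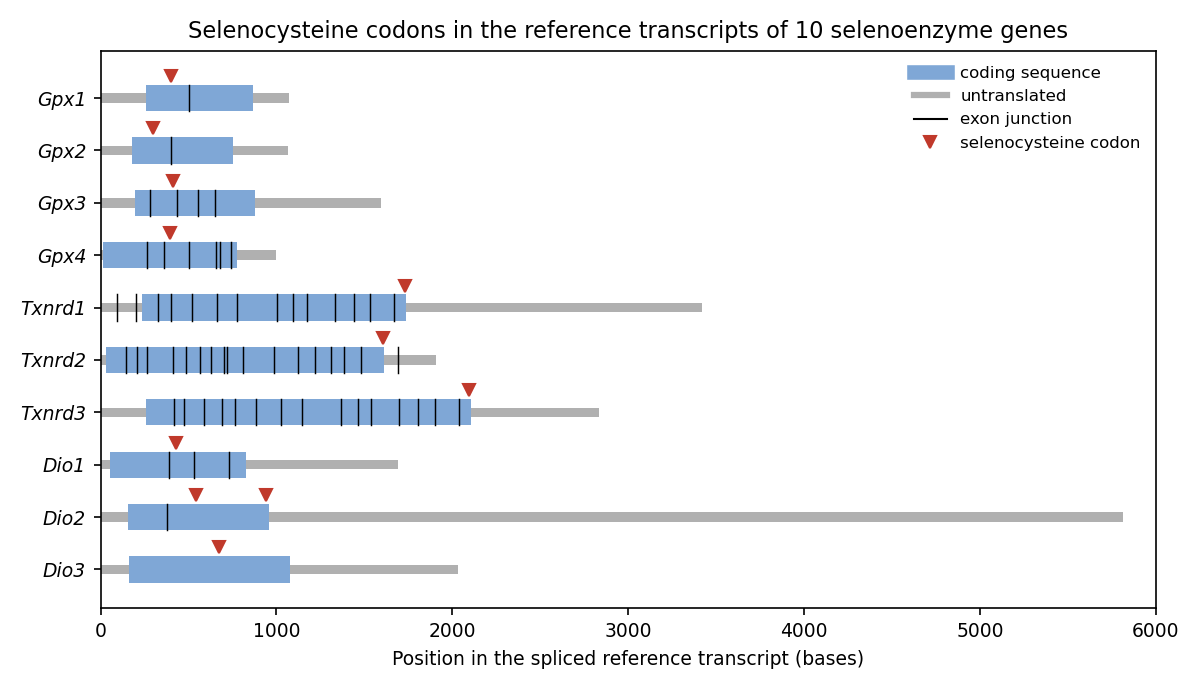
Reference transcripts of the 10 genes drawn to scale, with the position in spliced bases on the x axis, coding sequence in blue, untranslated sequence in grey, exon junctions as black lines and selenocysteine codons as red triangles. The codon lies within the coding sequence in Gpx and Dio genes and at its end in Txnrd genes, where 1 codon separates it from the stop codon, and Dio2 has 2 codons and the longest 3′ UTR, 4858 bases.

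The glutathione peroxidases, which reduce hydrogen peroxide or lipid hydroperoxides with glutathione, carried the codon in the first part or the middle of the coding sequence. In Gpx1, the gene of the cytosolic enzyme (Gpx1-001), it was codon 47 of 201. In Gpx2, whose enzyme is known from the gut epithelium, it was codon 40 of 190. In Gpx3, which encodes the secreted plasma enzyme, it was codon 73 of 226. These 3 genes had 450 to 462 coding bases between the codon and the stop codon, so they differed less at the 3′ side of the codon than in the 117 to 216 bases before it. Gpx4, the gene of the enzyme that reduces lipid hydroperoxides in membranes and restrains ferroptosis, had 372 bases there.

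Gpx4 is known for cytosolic, mitochondrial and nuclear forms that differ at the start of the protein. Its 3 protein-coding transcripts, which were not matched to these forms, had coding sequences of 759 bases (Gpx4-002), 591 bases (Gpx4-001) and 471 bases (Gpx4-007). The codon was number 129, 73 and 33 in these. In all 3 transcripts the codon lay 372 bases from the stop codon and 342 bases from the last junction, so they differ upstream of the codon. Gpx4-007 also ended earlier, with a 3′ UTR of 176 bases against 221 in the others.

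All 4 glutathione peroxidase codons lay more than 50 bases upstream of the last exon junction, the usual rule of thumb for nonsense-mediated decay. The distance was 105 bases in Gpx1 and 102 bases in Gpx2, both of which have 2 exons and a single junction. It was 240 bases in Gpx3, with 5 exons, and 342 bases in Gpx4, with 7 exons.

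The thioredoxin reductases, which use NADPH to keep thioredoxin reduced, carried the codon next to last. Txnrd1, the gene of the cytosolic enzyme, had it at codon 498 of 499. In GENCODE M21 the longest Txnrd1 coding sequence, 1839 bases in Txnrd1-205, had it at codon 612, also 3 bases from the stop codon. Txnrd2, the gene of the mitochondrial enzyme, had it at codon 526 of 527, and Txnrd3, whose enzyme is abundant in testis, at codon 614 of 615. All 3 therefore had 3 coding bases between the codon and the stop codon. In the lines above, the stop codon can be read after the triplet that follows TGA, as taa in Txnrd1 and Txnrd2 and as tag in Txnrd3.

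With so short an end, the last junction decides whether this TGA differs from an ordinary stop codon in its position. In Txnrd1 and Txnrd3 the codon lay in the last exon, 63 bases past the last junction in each. In Txnrd2 it lay in exon 17 of 18, and the last junction followed 83 bases further on, within the 3′ UTR. The annotated stop codon of Txnrd2 thus also lay over 50 bases upstream of a junction, at 77 bases. Among the 14 other selenoprotein genes, only BC089491 (Selenov) had its stop codon over 50 bases upstream of the last junction, at 59 bases. Of the 18983 protein-coding genes with more than 1 exon in their reference transcript, 81 (0.427%) had a stop codon so placed. Transcripts classed as nonsense-mediated decay could not be reference transcripts, so this share does not measure how rare the position is among all transcripts. In GENCODE M21, 3 of the 4 Txnrd2 transcripts with the mark (Txnrd2-203, Txnrd2-214 and Txnrd2-216) also had the codon 83 bases upstream of the last junction. In Txnrd2-215, whose coding sequence of 1581 bases is as long as that of Txnrd2-203, it lay 124 bases into the last exon.

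The deiodinases remove iodine from thyroid hormones: DIO1 and DIO2 make the active hormone from thyroxine, and DIO3 inactivates it. Their first codons lay in the middle of the coding sequence, at codon 126 of 257 in Dio1, 130 of 266 in Dio2 and 170 of 304 in Dio3. The coding bases to the stop codon were within a narrow range, 393 in Dio1, 408 in Dio2 and 402 in Dio3. The lengths before the codon were 375, 387 and 507 bases.

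Despite these like distances, the 3 deiodinase genes differed in exon structure. The Dio1 codon lay in exon 2 of 4, 303 bases upstream of the last junction. The first Dio2 codon lay in the last of 2 exons, 168 bases past the only junction. Dio3 had 1 exon and no junction. Dio2 was the only member with a second codon, number 263 of 266, with 9 coding bases between it and the stop codon and 567 bases past the junction.

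Over all members, 6 of 10 had the codon more than 50 bases upstream of the last junction, 3 had it in the last exon and 1 had no junction. Among the 14 other selenoprotein genes the counts were 8, 3 and 1, and the remaining 2 had the codon before the last junction but nearer to it. These shares are side by side for description and were not tested. The median distance from the first codon to the stop codon was 397.5 bases for the members and 222 bases for the other 14, and the range was 3 to 462 bases against 3 to 1167 bases. The longest distance among the others was that of Sephs2, which makes the selenium donor and had 1167 bases after its codon on 1 exon. The shortest distance among the others was 3 bases in Vimp (Selenos), which acts in protein quality control at the endoplasmic reticulum and, like the thioredoxin reductases, had the codon next to last. Sepp1 (Selenop), the gene of the plasma selenium carrier, held 10 codons, the first of them 963 bases from the stop codon.

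**Figure D2:**
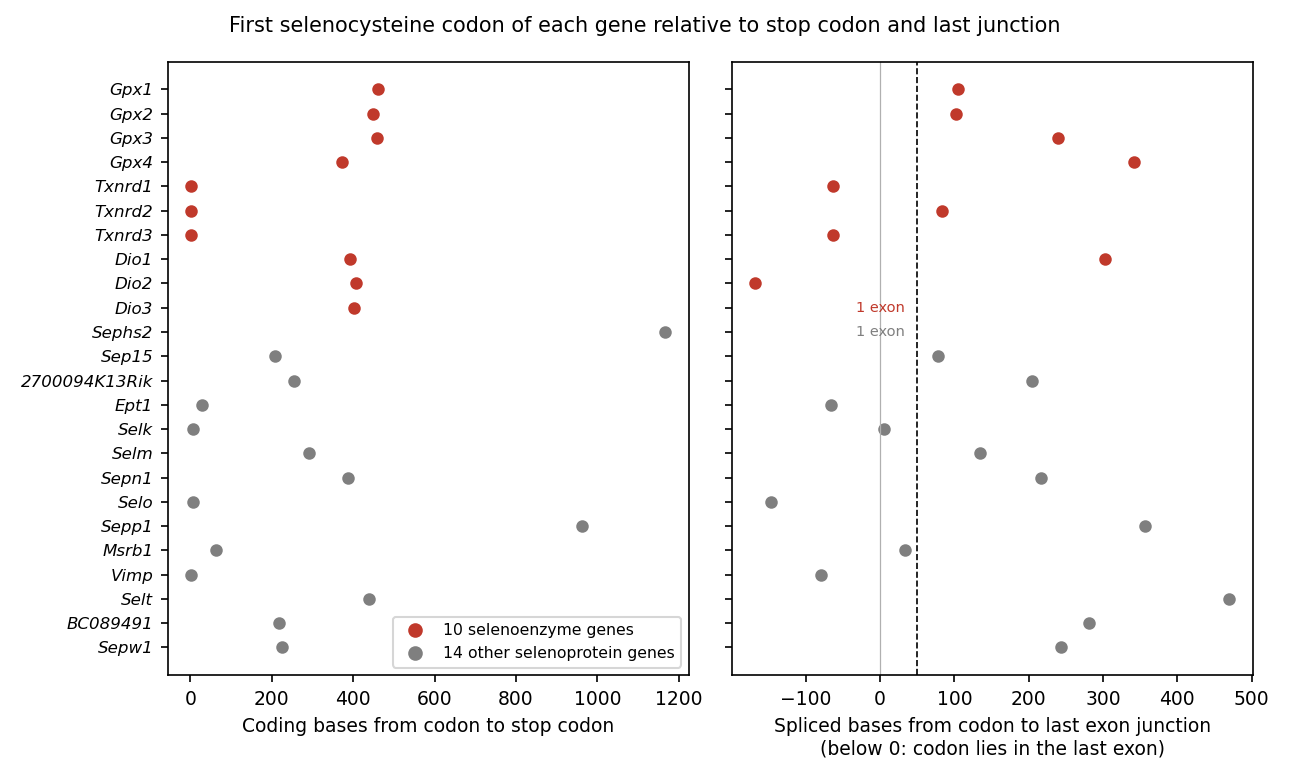
For the first selenocysteine codon of 24 genes, the left panel gives coding bases to the stop codon and the right panel gives spliced bases to the last exon junction, with members in red, other selenoprotein genes in grey and a dashed line at 50 bases. The Gpx codons sit at 372 to 462 bases from the stop codon and right of the dashed line, whereas Txnrd1, Txnrd3 and Dio2 lie below 0, in the last exon.

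The stop codons themselves were TAA in 5 members and TAG in 5, and 0 of 10 ended in TGA. Among 21511 protein-coding genes of GENCODE M21, 49.3% ended in TGA, 27.9% in TAA and 22.8% in TAG. Of the 14 other selenoprotein genes, 2 ended in TGA, Sephs2 and Sepw1 (Selenow). In the same 21511 reference transcripts, an in-frame stop triplet inside the coding sequence was found in the 24 selenoprotein genes and in 5 genes without a selenocysteine line. Those 5 were the mitochondrially encoded mt-Atp6, mt-Atp8, mt-Co1, mt-Co2 and mt-Nd6, and in mitochondria TGA is read as tryptophan.

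Most transcripts of the members, 27 of 42, carried no selenocysteine mark, 12 of them from Txnrd2 and 7 from Dio1. Among the 14 other selenoprotein genes, 26 of 46 transcripts carried the mark. Of the 42, all on reference chromosomes, 24 were classed as protein-coding, 4 as nonsense-mediated decay, 6 as retained intron and 8 as processed transcripts. The codon was marked in 15 transcripts, all of them protein-coding, and 13 of these had a complete coding sequence. In 5 members (Gpx1, Gpx4, Txnrd2, Dio1 and Dio3) at least 1 transcript lacked the mark. Gpx2, Gpx3, Txnrd1, Txnrd3 and Dio2 had it in every annotated transcript, although Gpx2, Txnrd1 and Dio2 had only 1 transcript each.

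In 4 transcripts the very triplet that encodes selenocysteine in the reference transcript was annotated as the stop codon. In Txnrd2 these were Txnrd2-201 and Txnrd2-202, classed as protein-coding, and Txnrd2-011, classed as nonsense-mediated decay, with 1566, 1473 and 1482 coding bases. In Dio1 it was Dio1-002, classed as nonsense-mediated decay, with 375 coding bases, equal to the 375 bases that precede the codon in the reference transcript. Only 1 of the 13 Txnrd2 transcripts (Txnrd2-001) had the selenocysteine line. The decay class of Dio1-002 and Txnrd2-011 thus goes with a TGA that the same annotation reads as selenocysteine elsewhere. The patch copy of Txnrd2 had the same pattern, with 3 transcripts of this kind. In GENCODE M21, 3 such transcripts remained, Txnrd2-212, Txnrd2-213 and Dio1-208, and 4 of 16 Txnrd2 transcripts had the selenocysteine line. Among those 4, Txnrd2-216, classed as protein-coding, had 17 exons and 1809 bases, the same numbers as the deposited Txnrd2-011. Whether they are the same model was not tested, so the counts and the decay class hold for the deposited annotation. Among the 14 other selenoprotein genes 1 transcript was of this kind, Sep15-004 (Selenof).

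Other transcripts start late or stop early. Gpx1-002 and Gpx1-003 contain the triplet in their exons, but their annotated start codons come after it, with 27 bases between, so their coding sequences of 432 and 435 bases lack selenocysteine. Dio3-201 starts 9 bases after the triplet, with 393 coding bases against 912 in Dio3-001. A start after the triplet also held for Dio1-003, which is an incomplete model. In Dio1-004 and Dio1-005 the triplet lay after the stop codon. In 2 noncoding transcripts (Gpx1-004 and Gpx4-003) it lay in an exon, and in 15 transcripts, 9 of them from Txnrd2, the codon was outside the exons.

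**Figure D3:**
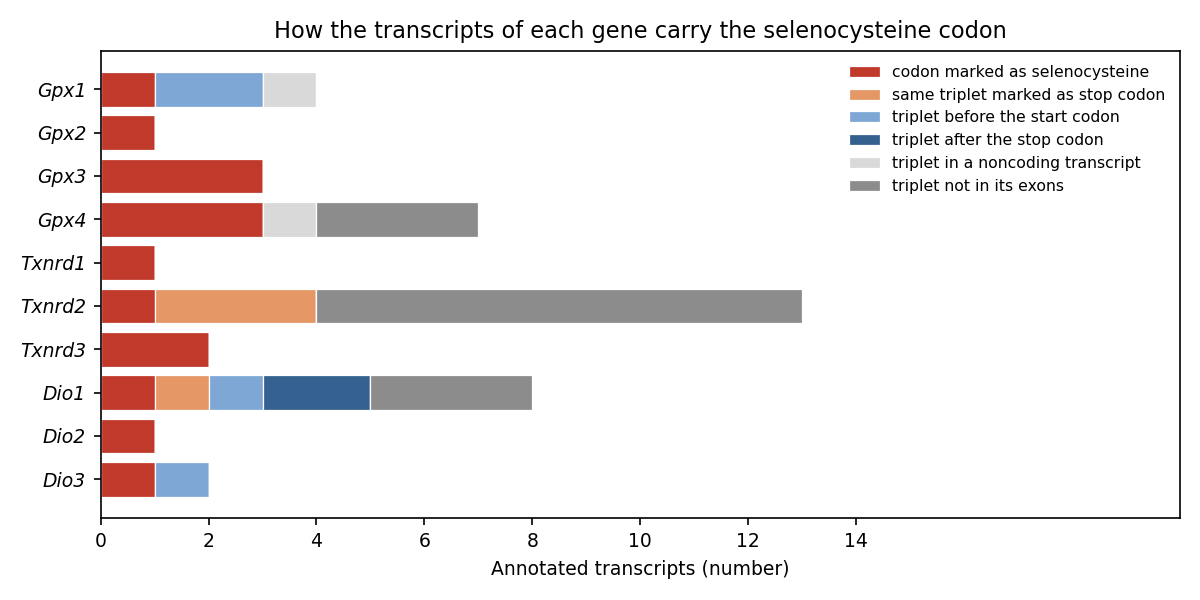
Number of annotated transcripts of each gene (x axis), coloured by how they hold the selenocysteine triplet. Txnrd2 and Dio1 have the orange class, in which the same triplet is the stop codon, with 3 transcripts and 1 transcript, and 9 of 13 Txnrd2 transcripts do not contain it.

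The 3′ UTR has to hold the SECIS element, and its annotated length varied widely. Glutathione peroxidases had 207 bases in Gpx1, 315 in Gpx2, 719 in Gpx3 and 221 in Gpx4. Thioredoxin reductases had 1679 bases in Txnrd1, 293 in Txnrd2 and 732 in Txnrd3. The deiodinases had 865 bases in Dio1, 4858 in Dio2 and 951 in Dio3. Deiodinase 3′ UTRs were longer than each of the glutathione peroxidase ones.

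The median over the members was 725.5 bases, against 608 bases over the 21382 protein-coding genes with a reference transcript, 1905 of which had 0 annotated bases of 3′ UTR, and 577.5 bases over the 14 other selenoprotein genes. Members spread over much of the range of coding genes: 27.4% of these genes had a shorter 3′ UTR than Gpx1, and 97.8% had a shorter one than Dio2. Their coding sequences were short in the peroxidases and deiodinases, at 570 to 912 bases, against a median of 1188 bases over coding genes. Among the other selenoprotein genes the 3′ UTR ranged from 0 bases in Sephs2 to 5428 bases in Ept1 (Selenoi), an enzyme of phospholipid synthesis. The Sephs2 model thus has no annotated 3′ UTR, although a selenoprotein mRNA is known to need one.

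**Figure D4:**
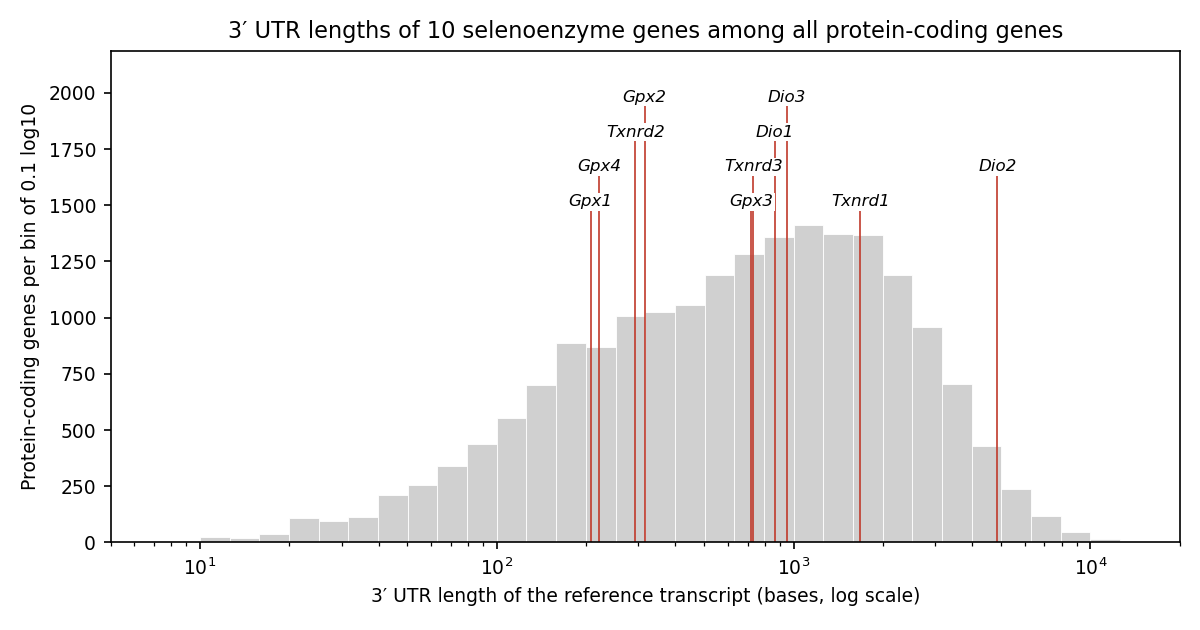
Distribution of 3′ UTR lengths of the reference transcripts of protein-coding genes (grey, log x axis in bases, genes per bin on the y axis, 1943 genes with under 5 bases not drawn), with the 10 members as red lines. Gpx1, Gpx4, Txnrd2 and Gpx2 lie at 207 to 315 bases, below the median of 608, and Dio2 lies at 4858 bases.

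The conserved letters of a SECIS element are few, and they were searched to see where a 3′ UTR could hold one. The pattern was ATGA, 9 to 13 bases of any kind, AA, 15 to 33 bases of any kind and GA, on the transcript strand, since the element works as RNA. It was found in 9 of 10 members, with 1 match each in Gpx1, Gpx2, Gpx3, Gpx4 and Txnrd2, 2 each in Txnrd1 and Dio3, 3 in Dio1 and 9 in Dio2. A match is a set of letters, not a shown element: 44.9% of 21511 reference transcripts had one, as did 5.41% of windows of 100 bases. The 21511 are all GENCODE M21 reference transcripts, with any that lack an annotated 3′ UTR counted among those without a match. Matches numbered 1.94 per kilobase of 3′ UTR in the members and 0.945 per kilobase over all genes.

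The 5 members with a single match are shown, from ATGA to AA, with these letters in capitals.
Gpx1, chr9:108340194-108340212, plus strand: ATGAtggtgtttcctctAA
Gpx2, chr12:76792418-76792436, minus strand: ATGAtggcatcttcctaAA
Gpx3, chr11:54910184-54910201, plus strand: ATGAaggaggggcccgAA
Gpx4, chr10:80056294-80056312, plus strand: ATGAaggtctgcctgaaAA
Txnrd2, chr16:18478981-18478999, plus strand: ATGAtggcctgggcagaAA
Where a run of A allowed more than 1 spacing, the longest is printed. These matches began 58 bases after the stop codon in Gpx1, 214 in Gpx2, 526 in Gpx3, 76 in Gpx4 and 201 in Txnrd2. Of all 3′ UTRs at least as long as that of Gpx1, 13.2% had a match in their first 207 bases, and the share was 14.2% at the length of Gpx4, 19.1% at that of Txnrd2, 20.5% at that of Gpx2 and 42.5% at that of Gpx3. The share was 48.4% at the length of Dio1, 51.7% at that of Dio3 and 72.0% at that of Txnrd1. At the length of the Dio2 3′ UTR it was 97.7%, so matches in Dio2 carry little. Txnrd3 had 0 matches, which says only that these letters at these spacings are not in its annotated 3′ UTR. With the first letter of ATGA left free Txnrd3 had a match, as did 71.4% of the 21511 reference transcripts.

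Reads of 75 bases, the length used by the study, would meet other genes at some of the members. Exons of the noncoding Gm26512, on the opposite strand, overlapped 100 bases of Dio2 (1.72% of its exon bases) and did not reach a selenocysteine codon. In GENCODE M21 transcripts, Gpx4 shared 509 of its 921 windows of 75 bases (55.3%) with 2 other genes. The pseudogene Gpx4-ps2 held all 509. Of the 73 windows that cover the Gpx4 codon, 13 were shared. Gpx2 shared 10.3% of its windows, with Gpx2-ps1, and Dio2 shared 0.453%. For Gpx1, Gpx3, Txnrd1, Txnrd3, Dio1 and Dio3 the count was 0 windows. A read from the shared part of Gpx4 could thus be placed on Gpx4-ps2 as well.

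Relatives in which cysteine stands at the active site carried no selenocysteine line: the count was 0 of 6 for Gpx5, Gpx6, Gpx7, Gpx8, Msrb2 and Msrb3. Of 11 genes of selenocysteine synthesis and insertion, only Sephs2, itself a selenoprotein gene, carried one. Their union of exons ran from 1359 bases in Sephs2 to 8222 bases in Secisbp2l, a relative of the SECIS-binding Secisbp2, with a median of 4549 bases. For the members the union ran from 1067 bases in Gpx2 to 5813 bases in Dio2.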

How the data were processed

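The deposited file is a gene annotation in GTF format on GRCm38, with Ensembl identifiers and no header. It serves the whole series, and 0 columns hold library values. The submitters' processing notes name CASAVA 1.8, FastQC, TopHat2, Bowtie2 and Cufflinks without roles, and no release of the annotation is stated.

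Exon, coding, start, stop and selenocysteine lines were read with Python 3.11.15, and positions were converted to spliced transcript bases. Genes on patches were left out of the counts of transcripts. Where a transcript had more than 1 selenocysteine codon, the first was used for medians. Letters came from GENCODE M21 transcripts of the same identifiers. Exons were the same in both annotations for 8 of 10 reference transcripts, while Txnrd1 and Dio2 differed in their untranslated parts. Of the other selenoprotein genes, 13 were found by a current or older symbol, and Selenov by its identifier (BC089491 in the file). Positions of 400 simulated gene models and 400 planted letter patterns were all recovered. Members and lists were chosen with earlier results of these data known. The named genes are all members and the extremes of the other selenoprotein genes. Sepw1, Sep15 and BC089491 were named after their values were seen. No test was run, as every value describes an annotation. The overlap of Txnrd2 with other genes is not reported here.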

Additional observations from a re-analysis of the deposited data

How the results depend on the processing

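The median distance from codon to stop codon was 397.5 bases with the longest coding sequence, the shortest, the longest exon sum and in GENCODE M21, and 382.5 bases when the last codon of Dio2 was used, a choice made after seeing the data. Members with the codon over 50 bases upstream of the last junction numbered 6, also at 55 bases and over all complete transcripts, and 5 in GENCODE M21. There Txnrd2-215 and Txnrd2-203 tie at 1581 coding bases, and the longer transcript, Txnrd2-215, was taken. Txnrd2-203 keeps the codon 83 bases upstream, which would leave the count at 6. The median 3′ UTR was 725.5 bases, with the longest or shortest 3′ UTR as well, and 798.5 bases in GENCODE M21, where it rests on the same tie: the 3′ UTR is 1290 bases in Txnrd2-215 and 293 in Txnrd2-203. Members with the SECIS letters numbered 9, against 44.9% of the 21511 reference transcripts of GENCODE M21. They numbered 9 with TGA as the last letters (30.7% of all), 8 at a narrower spacing of 10 to 12 and 18 to 30 bases (33.8%), and 10 with the first letter free (71.4%), added after seeing the data. Members with a transcript without the selenocysteine mark numbered 5, 4 among protein-coding transcripts and 7 in GENCODE M21, which lists 54 transcripts against 42. No paired analysis was possible because the file holds no library values and each group has 1 library. Depth limits nothing here, since no value is a read count.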
